A study of Drosophila melanogaster with 24 samples.

Results

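The timeless (tim) locus of Drosophila melanogaster is described here through the peaks that CLK and CYC gave around it in fly heads and bodies. Its members are all peaks of 12 deposited ChIP-seq peak lists whose midpoint lies in a window of 22000 bp around tim on chromosome 2L of the dm3 build. The window held 92 of the 58157 peaks of the 12 lists, 75 in the lists of tagged flies and 17 in the lists of untagged flies. Flies were 5 to 10 days old, had been kept at 25 °C in cycles of 12 h light and 12 h dark, and were frozen at ZT13, 1 h after lights-off. Chromatin was fixed with 1% formaldehyde for 10 min and pulled down with an antibody to the V5 tag from strains labelled Clk or cyc, which carry V5-tagged CLK or V5-tagged CYC. The same antibody was used on the untagged strain w-, and this pull-down is called mock. Heads were parted from bodies by sieving, so each library mixes all cell types of the head or of the body, and a weaker peak cannot be told apart from fewer cells with binding. Heads were sonicated in 6 rounds and bodies in 4, so sonication and tissue cannot be told apart. The 3 strains and the tissue pair make 6 groups, with 2 pull-down libraries in each that the submitters describe as biologically independent. How the tag was placed in the flies is not given in the sources used here.

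CLK and CYC are the paired transcription factors at the head of the fly circadian clock. They bind E-box elements together and switch on tim and period, whose proteins TIM and PER enter the nucleus as a complex and shut CLK and CYC off again. TIM is also broken down after light activates cryptochrome, which is how light resets the clock. This loop runs in the clock neurons and eyes of the head and in many body tissues, among them the fat body and the Malpighian tubules. In the Release 6 gene table of RefSeq, the gene before tim on 2L is CG15414, preceded by Thor, a repressor of translation initiation, and the next after it is a long noncoding RNA, lncRNA:CR46495. That table is for another build than the lists, so no peak was assigned to an exon, an intron or a start site, and left and right below mean lower and higher coordinates.

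Each peak carries 2 deposited values without a column name, called here the first and the second score. Their scale is not stated, so scores were compared within a list and not between lists, and rank 1 is the highest first score of a list. The lists were of very unequal length, from 73 peaks in body mock replicate 1 to 13729 in head CLK replicate 1, and they give no read depth. Where no peak is reported, the list has none, which does not show that the site was free. The replicate 1 head lists stand apart, since head CLK, CYC and mock replicate 1 held 12082 to 13729 peaks and the replicate 2 head lists 1726 to 4848. Peak width also followed the replicate number in the tagged lists, with 228 to 256 bp in replicate 1 and 294 to 322 bp in replicate 2.

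**Figure D1:**
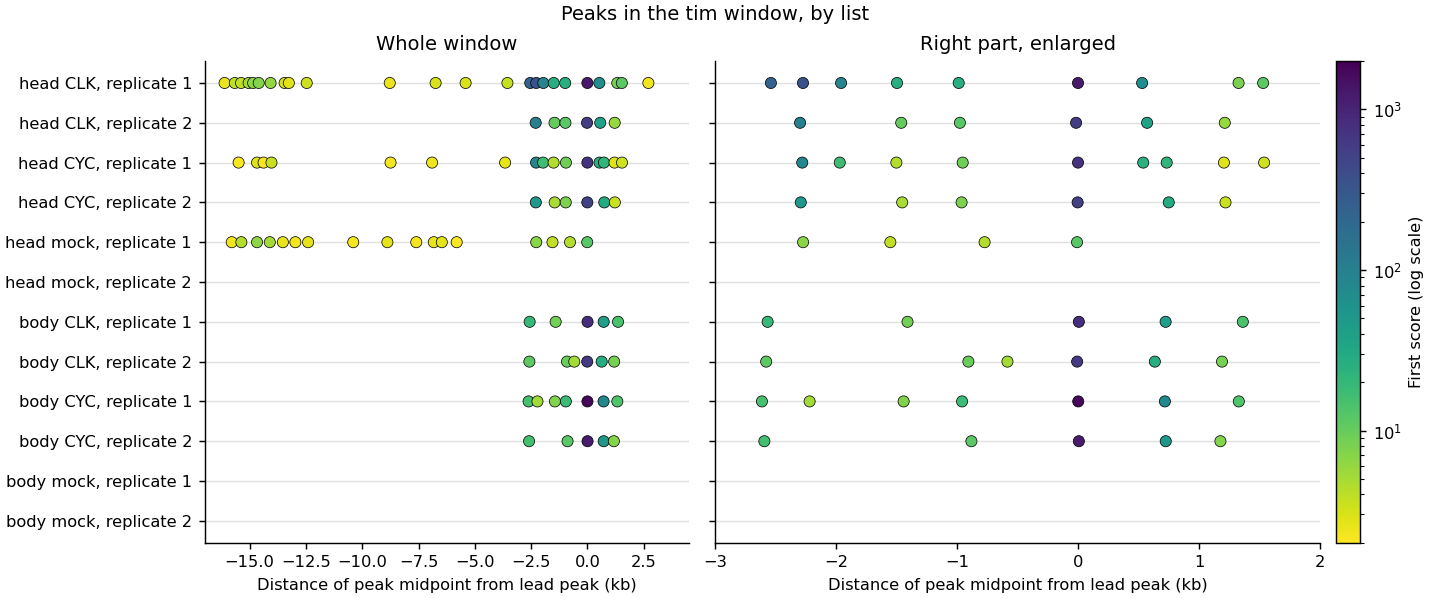
Each point is a peak, placed by the distance of its midpoint from the lead peak (x axis, kb) and by its list (y axis), and coloured by its first score on a log scale; the right panel enlarges the right part of the window. All 8 tagged lists have a dark point at 0 kb, the points left of about -3 kb belong to the replicate 1 head lists, and 3 of the 4 mock lists are empty.

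All 8 tagged lists had peaks in the tim window, and 3 of the 4 mock lists had none. Head CLK gave 24 peaks in replicate 1 and 6 in replicate 2. Head CYC gave 16 and 6, body CLK 5 and 6, and body CYC 7 and 5. Head mock replicate 1 held 17 peaks, while head mock replicate 2 and both body mock lists held 0. The mean was 13 ± 8.72 (SD, n = 4) in tagged heads, 5.75 ± 0.957 (n = 4) in tagged bodies and 8.50 ± 12.0 (n = 2) in head mock. Bodies were thus even and below 8 peaks in every list, and the spread in heads lay between replicate 1 and replicate 2. Windows of the same width laid over the 5 main chromosome arms (5369 windows) had a median of 0 or 1 peak in each list. The excess of tagged over mock libraries was 2.12 on the scale log2(peaks + 1) (exact permutation within tissue, two-sided p = 0.01778, n = 8 and 4). With 3 of the 4 mock counts at 0, the size of this excess is set in part by the 1 that was added to every count. The body mock lists held 73 and 175 peaks in all and filled 0.764% and 2.89% of the windows on the main arms. Adjusted over the 5 tests made at this locus by the Benjamini-Hochberg method, the exact permutation p was 0.08889. The unadjusted call rests on head mock replicate 2 and both body mock libraries. Without the first the difference was 1.08 (exact permutation p = 0.1467), and without either of the others it stayed at 2.12 with an exact permutation p of 0.05333. In heads alone it was 1.50 (exact permutation p = 0.4667) and in bodies alone 2.74 (exact permutation p = 0.06667, which 15 arrangements cannot go below). Among replicate 1 lists it was 1.49 and among replicate 2 lists 2.75, with too few libraries to pass the test.

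**Figure D2:**
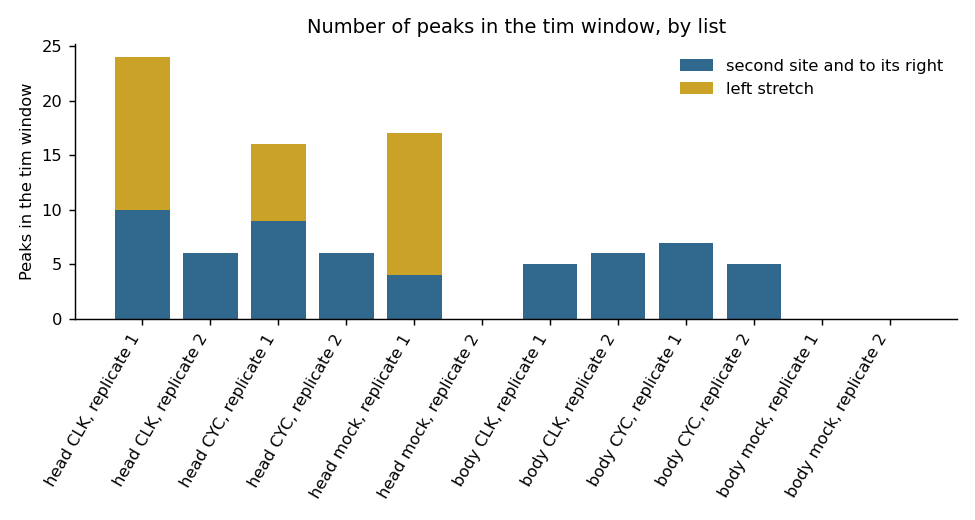
Bars give the number of peaks in the tim window (y axis, from 0) for each of the 12 lists (x axis), split into the stretch left of the second site and the part from the second site to the right. The left stretch is filled in head CLK, CYC and mock replicate 1 alone, with 14, 7 and 13 peaks, and the right part holds 5 to 10 peaks in the 8 tagged lists.

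No difference in peak number at tim was detectable between heads and bodies or between CLK and CYC. Head exceeded body by 0.84 on the log2 scale (exact permutation within factor, two-sided p = 0.2222, n = 4 and 4; adjusted 0.463). CLK exceeded CYC by 0.091 (exact permutation within tissue, two-sided p = 0.8889, n = 4 and 4; adjusted 0.8889), and this sign turned in 3 of the 8 runs that left out 1 library. With 36 arrangements p cannot fall below 0.05556. When only the 1153 best peaks of a list were kept, the window held 4 to 7 peaks in each tagged head list and 5 or 6 in each tagged body list. The head mock lists at that length held 1 and 0. Head against body then came to 0.038 on the log2 scale. Per 1000 peaks of the whole list the window took 1.24 to 1.75 in tagged heads, 1.77 to 5.20 in tagged bodies and 1.41 in head mock replicate 1. Bodies thus lay above heads on this scale, but the nearest lists were close, at 1.748 in head CLK replicate 1 and 1.765 in body CYC replicate 1. How many other windows showed this order was not counted. Longer lists give lower values per 1000 for the same number of peaks, and every tagged head list was longer than every tagged body list.

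Peaks of the tagged lists that overlapped were joined into a site, and the window held 18 of the 21802 sites of these lists. A site with a peak in all 8 tagged lists was rare over the genome, at 0.794% of sites (173 of 21802), and tim held 4 of them. From left to right these were the second site at 2L 3504676 to 3505311, the lead site at 3507238 to 3507569, the near right site at 3507818 to 3508312 and the far right site at 3508445 to 3509081. Between the second and the lead site lay the farther inner site at 3505786 to 3506122, found in 6 tagged lists, and the nearer inner site at 3506278 to 3506986, found in 7. The other 12 sites had peaks in head replicate 1 lists alone, a class that made up 49.1% of all sites. The outermost peaks inside the window, at midpoints 3491299 and 3510124, had first scores of 2.50 and 2.35. The nearest peak outside to the left, at 3480446, belonged to a site at 3480037 to 3480593 that was found in all 8 tagged lists, at ranks 138 to 484. To the right it lay at 3514510, with a first score of 10.1 in head CLK replicate 2.

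The lead site was among the 5 best peaks of every tagged list by the first score, in heads and in bodies and for both factors. Its first score was 1263 in head CLK replicate 1 and 582 in replicate 2, with 721 and 533 for head CYC. Body CLK gave 804 and 630.2, body CYC 1786 and 1217. The ranks were 5 and 3 for head CLK, 4 and 2 for head CYC, 3 and 2 for body CLK, and 1 in either body CYC list. The lead site was thus the best peak of the whole list in both body CYC libraries and in no other list. Its second score ran from 75.8 in body CLK replicate 1 to 371 in body CYC replicate 1. Ranked by the second score it stayed at 1 to 3 in head CLK replicate 2, body CLK replicate 2 and both body CYC lists. It stood at 12 in body CLK replicate 1, at 15 and 20 in head CYC, and at 76 in head CLK replicate 1. Head mock replicate 1 had a peak at the lead site with a first score of 12.1, at rank 301 of 12082 by the first score and 6930 by the second. It lay on the tagged summits, at midpoint 3507407. Over the genome 39.3% of sites, and 39.9% of the sites in all 8 tagged lists, also had a peak in this mock list. A peak of any strength was therefore common in that library. The one at the lead site was the strongest mock peak of the window by the first score, at 2.49% of the length of its list. Its part in the tagged values was not tested.

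The midpoints of the lead peak fell within 23 bp across all 8 tagged lists. They lay at 3507415 and 3507399 in head CLK, 3507415 and 3507412 in head CYC, 3507422 and 3507408 in body CLK, with 3507417 and 3507422 for body CYC. CLK midpoints averaged 5.50 bp to the left of CYC midpoints (CLK minus CYC -5.50 bp, exact permutation within tissue, two-sided p = 0.5, n = 4 and 4; adjusted 0.625). Head midpoints averaged 3507410 ± 7.63 (SD, n = 4) and body midpoints 3507417 ± 6.60 (n = 4), a head minus body difference of -7.00 bp (exact permutation within factor, two-sided p = 0.2778; adjusted 0.463). The midpoints of CLK and CYC and those of heads and bodies overlapped. With 36 arrangements neither exact permutation p could fall below 0.05556. These tests therefore could not call a shift of any size, and no conclusion is drawn from them. Picking the strongest peak by the second score changed 1 list, head CLK replicate 1, where a peak of the second site at 3504877 then led with 335 against 225 at the lead site.

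The 5 other sites with the best mean rank over the tagged lists were taken as a yardstick for the lead site. Its mean rank was 2.63, behind 3L 7828200 to 7828522 at 2.13 and 3L 7826767 to 7827090 at 2.38. It was followed by 2L 5303180 to 5303504 at 3.38, 2L 5305472 to 5305811 at 4.88 and X 2578927 to 2579251 at 5.75. The order of the first 3 was not the same in the single lists, where the lead site ranked from 1 to 5, the first 3L site from 1 to 4 and the other 3L site also from 1 to 4. Their mean ranks differ by less than this range. Head and body midpoints lay 3 to 14.8 bp apart at these 5 sites, against 7 bp at the lead site.

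By the first score, the second site was the strongest tim peak after the lead in every head list. Its strongest head and body peaks by that score lay at different places. In heads the first score of its strongest peak was 362 and 103 for CLK, and 81.0 and 47.0 for CYC, at ranks 18, 32, 30 and 36. In bodies CLK gave 19.5 and 11.1 and CYC gave 15.3 and 15.7, at ranks 264, 236, 421 and 166. Every head rank was thus ahead of every body rank, although the head lists were longer. Among the 173 sites found in all 8 tagged lists, 6.36% showed this order of ranks. By the second score the ranks of the same peaks overlapped, at 48 to 106 in heads and 57 to 348 in bodies. As a percentage of the list length the ranks by the first score were 0.131 to 0.743 in heads and 10.6 to 20.5 in bodies. That order was shown by 29.5% of the 173 sites. As a share of the lead peak in the same list, the second site reached 28.6% and 17.6% for head CLK, against 11.2% and 8.82% for head CYC. Body CLK came to 2.43% and 1.77%, body CYC to 0.855% and 1.29%. Every head share was above every body share, as at 27.2% of the 173 sites. Within each tissue both CLK shares were above both CYC shares, as at 46.8% of the 173 sites and also at the far right site. These shares use the authors' scores, whose scale is not known, and were not tested.

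**Figure D3:**
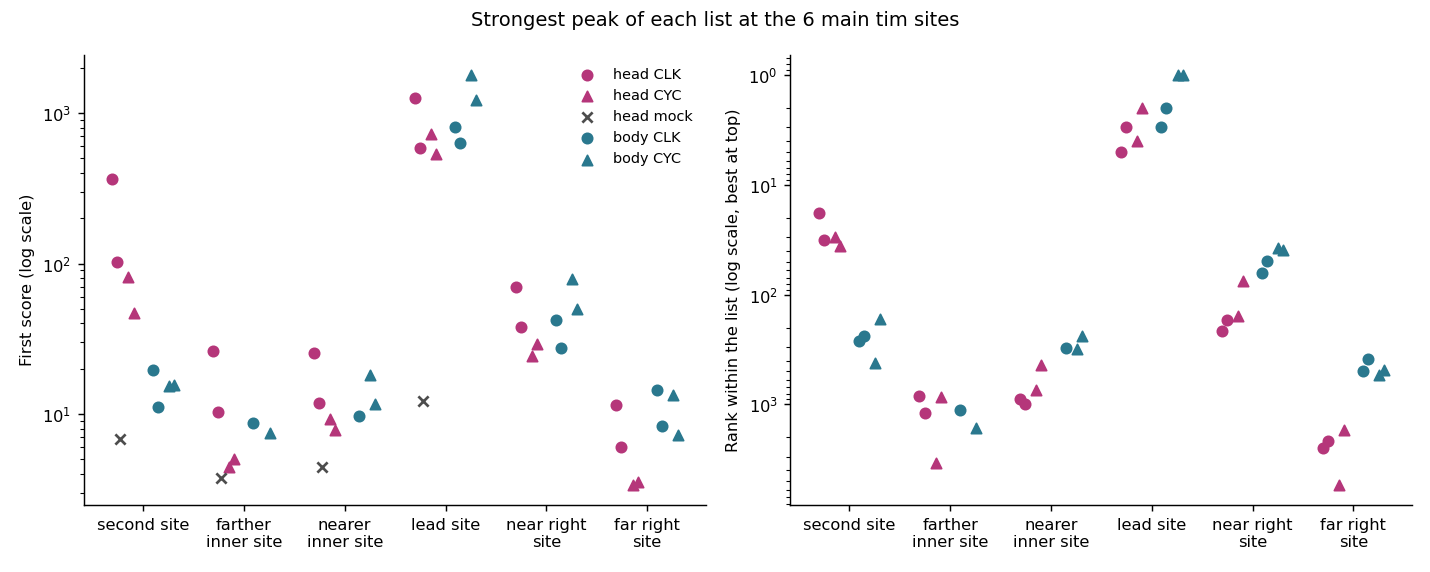
The strongest peak of each list at the 6 main tim sites is shown by its first score (left, log scale) and by its rank within the list (right, log scale, best at the top), with circles for CLK, triangles for CYC and crosses for head mock replicate 1 (scores only). At the second site the head ranks of 18 to 36 stand above the body ranks of 166 to 421, and at the near right site the body ranks of 38 to 64 stand above the head ranks of 75 to 214.

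The second site consisted of 2 summit positions. In all 4 body lists the strongest peak had its midpoint at the left position, at 3504850 and 3504838 in CLK and 3504803 and 3504823 in CYC. In all 4 head lists it lay at the right position by the first score, at 3505142 and 3505118 in CLK and 3505136 and 3505124 in CYC. By the second score the left position led in head CLK replicate 1, with 335 at 3504877 against 286 at 3505142. The distances below use the first score. The means were 3505130 ± 10.9 (SD, n = 4) in heads and 3504828.5 ± 20.3 (n = 4) in bodies, so heads lay 301.5 bp to the right, far beyond the spread within either tissue. The position was singled out after its values were seen, and no test was made. Over the 173 sites in all 8 tagged lists the median absolute distance between the head and body means was 15.5 bp. The second site had the second-widest distance of these sites. In 4.05% of the sites (7 of 173) the head and body midpoints did not overlap and their means were 100 bp or more apart. A pair of lists had both positions: head CLK replicate 1 had a further peak at 3504877 with a first score of 231, and body CYC replicate 1 had one at 3505197 with 5.27. The left position was therefore also called in 1 head list and the right position in 1 body list. The peak of head mock replicate 1 lay at the right position, at 3505143, with a first score of 6.85 and rank 1646. When peaks had to share 50% of their width to be merged, the positions parted into separate sites and tim kept 3 sites with a peak in all 8 lists.

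**Figure D4:**
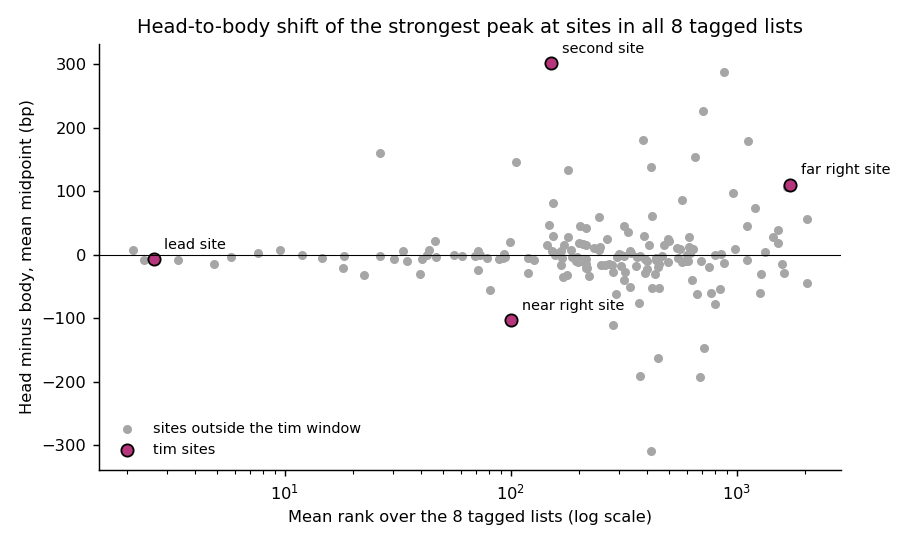
Each point is 1 of the 173 sites with a peak in all 8 tagged lists, placed by its mean rank over these lists (x axis, log scale) and by the mean midpoint in heads minus that in bodies (y axis, bp); the 4 tim sites are marked. The second site stands at 301.5 bp and the lead site at -7.00 bp, against a median absolute distance of 15.5 bp. Midpoints are those of the strongest peak by the first score.

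The near right site was the strongest tim peak after the lead in every body list by the first score. By the second score this held in body CYC replicate 1 alone. Body CLK gave it first scores of 42.1 and 27.6, and body CYC 79.5 and 49.9, at ranks 64, 49, 38 and 39. Head CLK gave 70.1 and 37.7, and head CYC 24.3 and 29.2, at ranks 214, 170, 155 and 75. Every body rank was ahead of every head rank, an order that 29.5% of the sites in all 8 tagged lists showed and that the shorter body lists favour. As a percentage of the list length the ranks overlapped, with 0.958 to 4.25 in bodies and 1.28 to 3.69 in heads, and 0.578% of the sites in all 8 tagged lists had every body value ahead of every head value on that scale. As a share of the lead peak, the site reached 4.10% to 5.24% in bodies and 3.37% to 6.47% in heads, so the tissues overlapped. Ranks of the same peaks by the second score overlapped too, at 102 to 562 in bodies and 247 to 3433 in heads. Its strongest midpoints ran from 3508050 to 3508140 in bodies. In heads they lay at 3507945 and 3507986 in CLK and at 3507954 and 3508165 in CYC, and head CYC replicate 1 had a further peak at 3508148. Head and body midpoints overlapped here. No mock list had a peak at this site.

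The far right site had low first scores beside the lead site, at 0.469% to 1.80% of it in the same list, and no mock peak. Its strongest peak had first scores of 11.4 and 6.03 in head CLK, 3.38 and 3.52 in head CYC, 14.4 and 8.37 in body CLK, with 13.4 and 7.24 for body CYC. Each was above the median first score of its list. Its ranks ran from 1722 to 5417 in heads and from 385 to 539 in bodies, an order that again 29.5% of the 173 sites showed. As a percentage of the list length they overlapped, at 18.1 to 47.0 in heads and 13.6 to 38.1 in bodies. By the second score it stood at rank 154 in body CLK replicate 1, with 19.4 against 13.3 at the second site. The position of its strongest peak differed between the replicate numbers. The strongest midpoint was at 3508592 to 3508634 in the 4 replicate 2 lists and at 3508744 to 3508953 in the 4 replicate 1 lists, and 8.67% of the 173 sites showed such a split between replicate numbers. Head CYC replicate 1 also had a peak at 3508621, within the replicate 2 range, with a first score of 2.84 against 3.38 at 3508953. Peak width followed the replicate number in the same way, and its part in this split was not tested.

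The inner sites between the second and the lead site had low first scores beside the lead site, at 0.418% to 2.08% of it in the same list. Neither was found in every tagged list. The nearer inner site had first scores of 25.3 and 11.9 in head CLK, 9.31 and 7.80 in head CYC, 9.66 in body CLK replicate 2 and 18.1 and 11.6 in body CYC. It had no peak in body CLK replicate 1. In the other body lists it was near the second site, which had 11.1 in CLK replicate 2 and 15.3 and 15.7 in CYC. It was above the second site in body CYC replicate 1 alone. Head ranks of the nearer inner site ran from 438 to 983 and its body ranks from 238 to 311, an order that the shorter body lists favour. Of the 173 sites in all 8 tagged lists, 29.5% had every body rank ahead. That share was not counted for sites in 7 tagged lists. As a percentage of the list length the ranks of the nearer inner site overlapped, at 6.16 to 21.3 in heads and 7.84 to 26.8 in bodies. The farther inner site had 26.2 and 10.3 in head CLK, with 4.45 and 4.99 for head CYC, and in bodies it was called in replicate 1 alone, with 8.73 in CLK and 7.46 in CYC. Both sites also had a peak in head mock replicate 1, with first scores of 4.45 at the nearer and 3.76 at the farther one. The mock peak at the farther site ranked 4925, at 40.8% of the length of its list. The tagged peaks there stood at 6.17% to 28.1% of the list length in heads. In bodies they stood at 46.1% in CLK and 41.6% in CYC. To the right of the second site, at 3505318 to 3505584, the replicate 1 head lists alone had a shoulder peak with first scores of 87.7 in CLK and 16.9 in CYC, at ranks 163 and 253. It had no mock peak. The other 11 sites of those lists alone ranked 4316 at best.

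The left stretch of the window, from 3491299 to 3503863, had peaks in the replicate 1 head lists and in no other list. Their first scores reached 7.11 at most. Head CLK replicate 1 had 14 peaks there, with first scores of 2.50 to 7.11 and ranks from 4316 down. Head CYC replicate 1 had 7, with 2.13 to 3.57 and ranks from 4990 down, and head mock replicate 1 had 13, with 2.10 to 6.41 and ranks from 1894 down. By the second score the same stretch reached further up the lists, to 44.6 at rank 614 in head CLK replicate 1, 16.6 at rank 1032 in head CYC replicate 1 and 20.6 at rank 630 in head mock replicate 1, where the lead site ranked 6930. The stretch was thus filled in the tagged and the untagged libraries of that replicate number. Its highest first score was above the list median in each, which was 4.55 in head CLK, 3.16 in head CYC and 3.29 in head mock. Of the 10 sites that the tagged lists formed there, 7 had a peak of head mock replicate 1. Among all sites found in the replicate 1 tagged head lists alone, 49.3% had one, and among the 12 of the tim window 7 had one. Over the whole window, 12 of the 17 peaks of head mock replicate 1 overlapped a peak of head CLK replicate 1 and 9 a peak of head CYC replicate 1. With each of the replicate 2 head lists 4 of them did. For the whole mock list these shares were 59.8% and 58.3% with replicate 1 and 16.04% and 16.4% with replicate 2. Head mock replicate 2 had a peak at 4.65% of all sites and the body mock lists at 0.592%, and neither had any in the tim window. In all, 11 of the 18 tim sites had a peak in a head mock list, against 41.3% of all sites, and all 11 came from replicate 1.

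Setting the window's peaks against their own lists, the median first score in the window was above the list median in every tagged list. For head CLK it was 5.57 against 4.55 in replicate 1 and 24.8 against 5.71 in replicate 2, and for head CYC 3.48 against 3.16 and 18.5 against 2.99. For body CLK it was 19.5 against 8.15 and 10.4 against 6.15, for body CYC 15.3 against 6.60 and 15.7 against 5.81. In head mock replicate 1 it was 2.69, below the list median of 3.29. The gap was narrow in the replicate 1 head lists, where the peaks of the left stretch are counted in. Of the 100 best peaks of each list, 2 or 3 lay in the tim window in the 8 tagged lists and 0 in head mock replicate 1. Neither comparison was made for other windows of this width, so neither sets tim apart from them.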

How the data were processed

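Reads were mapped with Bowtie 0.12.7 to dm3, per the submitters' processing notes, and the file names pair each pull-down with its own input, so replicates were not pooled. The peak caller is not given in the sources used here. The authors deposited 2 scores per peak without names or scale, all at 2 or above. Depth per library is unknown. The 12 inputs of the 24 libraries have no list of their own and were not analysed here.

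Peaks with a midpoint in the window were ranked within their list. Peaks that shared 1 bp or more were merged into sites over the 8 tagged lists. Peak numbers on the scale log2(peaks + 1) and lead midpoints were compared by exact two-sided permutation over libraries, 5 tests in all, with Benjamini-Hochberg adjustment. Peaks and sites are not replicates, so they gave no p-value. Sites in 4 or more tagged lists are described list by list, and the 5 best sites elsewhere are named by position. Alternatives were score thresholds, lists of at most 1153 peaks, a replicate block, half-width overlap, the second score and leaving out each library. The members and lists were chosen with earlier results of these data known. Site merging was tested on simulated sites set far apart, so that test does not cover close peaks such as those at tim. Calculations used Python 3.11.15, numpy 2.4.6 and pandas 2.3.3. Positions are as deposited, without conversion between builds.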

Additional observations from a re-analysis of the deposited data

How the results depend on the processing

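The tagged excess in peak number was 1.84 to 2.41 on the log2 scale under both score thresholds and with lists of at most 1153 peaks (the body mock lists stayed at 73 and 175), with exact permutation p of 0.004444 to 0.01778. Leaving out single libraries gave 1.08 to 3.17, and its p rose above 0.05 only without head mock replicate 2 or either body mock. Settings chosen after seeing the data gave 1.49 (replicate 1 lists), 2.75 (replicate 2 lists), 1.50 (heads) and 2.74 (bodies). None of these settings kept the unadjusted call, and each had fewer samples by construction. Head against body kept its sign, at 0.38 to 1.30 without single libraries. CLK against CYC ran from -0.37 to 0.55 without single libraries, and was negative without head CLK replicate 1 (-0.37), head CYC replicate 2 (-0.23) or body CYC replicate 2 (-0.013). The lead midpoint differences stayed negative, at -9.50 to -1.50 bp for CLK minus CYC and -11.0 to -3 bp for head minus body. With the second score they came to -640.0 and -641.5 bp, set by head CLK replicate 1. Sites in all 8 tagged lists numbered 3 to 5 under each setting. Sites with a head mock peak numbered 11, but 5 above the median first score of 3.92, 1 with lists of at most 1153 peaks, 0 without head mock replicate 1 and 9 to 12 without other single libraries. With the replicate block the exact permutation p was 0.02469 for tagged against mock at 2.12, 0.25 for head against body at 0.84, 0.75 for CLK against CYC at 0.091, and 0.5 and 0.125 for the midpoints at -5.50 and -7.00 bp. The block changed no call, but p could not fall below 0.125 in the last 4 of these, so they say nothing about stability. Deviations of same-numbered lists, over windows of the main arms, correlated at 0.40 to 0.46 in the 3 pairs of head groups, -0.080 to 0.31 in the 3 of body groups and -0.13 to 0.040 in the 9 across tissues. Replicate numbers were therefore not taken as pairs over all groups, although the head lists of a number are alike. Crossing the numbers between tissues gave an exact permutation p of 0.25. Read depth is unknown, so no limit of detection can be given for lists without a peak.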
